A study of Mus musculus with 3 samples.

Results

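The G2/M and mitosis genes described here are 47 genes that act as a cell leaves DNA replication, enters mitosis and divides. They were taken by symbol from a fixed list, and all 47 were among the 32285 genes of the count tables. The rule itself uses no measured value, but the list was chosen with earlier results of these data known. Counts of members set beside all genes below are therefore a description. Transcripts of the 47 genes were counted cell by cell, with a 10x Genomics 3′ kit, in T cells sorted on CD3 from MC38 tumours of mice. MC38 is an established mouse colon carcinoma line. Each of the 3 groups, PBS, mix and homo, is a single library. All tumours were taken at day 15, after 5 days of treatment. Neither the agents behind the names mix and homo nor the strain, age or number of mice in a library are stated in the labels. The series is about interleukin-2 targeted to LAG3, a T cell inhibitory receptor. With 1 library per group no difference below has a replicate check and no test was possible. Intervals are 95% intervals that cover counting error only, because cells are not replicates.

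Mitosis is driven by the kinase CDK1 bound to B cyclins. The B cyclins accumulate after DNA replication, and the anaphase-promoting complex, an ubiquitin ligase, marks them for destruction so that the cell can leave mitosis. Most genes of the programme are transcribed in a wave that is repressed in resting cells by the DREAM complex and activated in G2 by B-MYB and FOXM1. DREAM reaches their promoters through a short element called the CHR, and many of these promoters also hold CCAAT boxes bound by NF-Y. In T cells, the programme accompanies clonal expansion after antigen and interleukin-2 signals, and its transcripts mark dividing cells in tumours.

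The libraries differed in depth, in the T cell classes they held and in one sign of cell quality. They held 49179708 to 65336646 UMIs (unique transcript tags), with the deepest library being homo. Filtering left 9214 cells for PBS, 7588 for mix and 7303 for homo. Barcodes with 10% or more mitochondrial UMIs were 0.251% of PBS, 0.307% of mix and 4.07% of homo, and were left out. From 100 to 131 cell barcodes were shared between any pair of libraries, at most 1.55% of a library. Cells with a UMI of Cd8a or Cd8b1 and none of Cd4 or Foxp3, called the CD8 gate, numbered 7147, 5613 and 6543 in that order. The CD4 gate (Cd4 without Foxp3 and CD8 genes) held 327, 323 and 74 cells. The Foxp3 gate (Foxp3 without CD8 genes) held 846, 812 and 124 cells.

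Promoters of the programme are printed first because the members' ratios between libraries, given further on, differed widely while most members shared the same promoter elements. RefSeq sequence for GRCm38.p6, which is not the build named for the counts, covered 41 of the 47 members, from 250 bases before to 50 after each gene's start. The CHR core TTTGAA (or TTCAAA on the other strand) was in 31 of these 41 windows (75.6%), against 20.2% of the windows of 27025 genes. A CCAAT box (or ATTGG) was also in 31 of the 41, against 41.1% of all windows. Both were in 27 members (65.9%) and in 7.97% of all windows, and overlap between the motifs was allowed. A CHR core lay between 60 bases before and 50 after the start in 28 members (68.3%), against 6.36% of all genes. For contrast, TATAAA was in 1 member window and in 15.7% of all windows. A match is only a run of letters and was not tested as a bound site.

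The 100 bases before the start are shown 5′ to 3′ on the gene's strand, with CHR cores and CCAAT boxes in capitals. The first 4 are the members with the largest homo over PBS ratios in the CD8 gate. The others are Cdc20, with an intermediate ratio, and Cdk1 and Top2a, with ratios near 0. They were chosen with these values known, and lie at chr9:70421555-70421654 on the minus strand for Ccnb2, chr2:118813903-118814002 (plus) for Knstrn, chr2:164769829-164769928 (plus) for Ube2c, chr6:124830076-124830175 (plus) for Cdca3, chr4:118437344-118437443 (minus) for Cdc20, chr10:69352913-69353012 (minus) for Cdk1 and chr11:99024190-99024289 (minus) for Top2a.
Knstrn: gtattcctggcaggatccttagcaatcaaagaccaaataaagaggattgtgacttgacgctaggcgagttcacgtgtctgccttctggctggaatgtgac
Ccnb2: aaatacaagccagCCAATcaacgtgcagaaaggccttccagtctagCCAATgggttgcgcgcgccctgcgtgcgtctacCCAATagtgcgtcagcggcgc
Cdca3: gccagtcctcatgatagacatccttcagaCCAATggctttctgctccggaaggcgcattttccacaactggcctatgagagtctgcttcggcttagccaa
Ube2c: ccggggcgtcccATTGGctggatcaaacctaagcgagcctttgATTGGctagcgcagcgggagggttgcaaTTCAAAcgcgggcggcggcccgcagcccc
Cdc20: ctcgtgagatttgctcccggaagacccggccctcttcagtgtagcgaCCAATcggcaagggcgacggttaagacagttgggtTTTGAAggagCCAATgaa
Cdk1: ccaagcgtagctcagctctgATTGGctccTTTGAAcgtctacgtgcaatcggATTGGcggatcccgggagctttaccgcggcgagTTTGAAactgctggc
Top2a: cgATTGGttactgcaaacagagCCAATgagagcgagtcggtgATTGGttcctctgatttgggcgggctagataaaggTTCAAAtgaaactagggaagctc
In these 100 bases Cdk1 held 2 CHR cores and 2 CCAAT boxes, and Top2a held 1 and 3. Ube2c held 1 CHR core and 2 CCAAT boxes. Ccnb2 held 3 CCAAT boxes, Cdca3 held 1, and Knstrn held neither motif in this stretch. Ccnb2 and Cdca3 did hold CHR cores elsewhere in the full window. Counted from the start, those of Ccnb2 lay at bases -167 to -162 and 5 to 10, and that of Cdca3 at 31 to 36. The ratio between libraries did not separate by the CHR core. Among members compared in the CD8 gate, the median log2 ratio of homo over PBS was 0.49 for the 24 with a core in the full window (0.01 to 1.16) and 0.57 for the 8 without (0.37 to 1.17).

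In the CD8 gate the summed level of the 47 genes was highest in homo, and PBS and mix lay close together. Summed UMIs were scaled to all UMIs of the gate (CPM), a count of 3′ tags that is not scaled by gene length. The sum was 1727 CPM for PBS, 1622 for mix and 2570 for homo. The homo sum was 1.49-fold that of PBS (log2 ratio 0.57, 0.56 to 0.59) and 1.58-fold that of mix (0.66, 0.65 to 0.68). The mix sum was 0.939-fold that of PBS (log2 ratio -0.09, -0.11 to -0.07). Hmgb2, a chromatin protein, supplied 24.3% of the members' UMIs in PBS, 25.6% in mix and 27.3% in homo. Without it the log2 ratio of homo over PBS was 0.52. The 3 comparisons share libraries and are not independent of each other.

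Single members were compared where their mean over the 3 libraries was at least 10 CPM, which 36 of the 47 reached in the CD8 gate. In homo over PBS, 14 of these 36 were higher by 1.5-fold or more and 0 lower by as much. Over all 7655 genes compared the shares were 2.83% and 4.28%. All 36 ratios were above 0, with a median log2 ratio of 0.48 against -0.05 over all genes compared. The 11 members under the filter had log2 ratios from 0.03 to 0.90, so that all 47 were above 0. With no filter, 20 of the 47 were at least 1.5-fold higher, and the share of all genes was not counted that way. Nearest the 1.5-fold limit were Plk1 and Mki67 just inside, at 1.55 and 1.54-fold, and Tpx2 and Bub1b just outside, at 1.44 and 1.43-fold. In mix over PBS, 0 of the 36 passed 1.5-fold in either direction, where 0.392% of all genes were higher and 0.47% lower. Of these 36, 29 were below 0 (median log2 ratio -0.14). In homo over mix, 23 of 36 were at least 1.5-fold higher and 0 lower, against 2.74% and 4.04% of all genes.

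**Figure D1:**
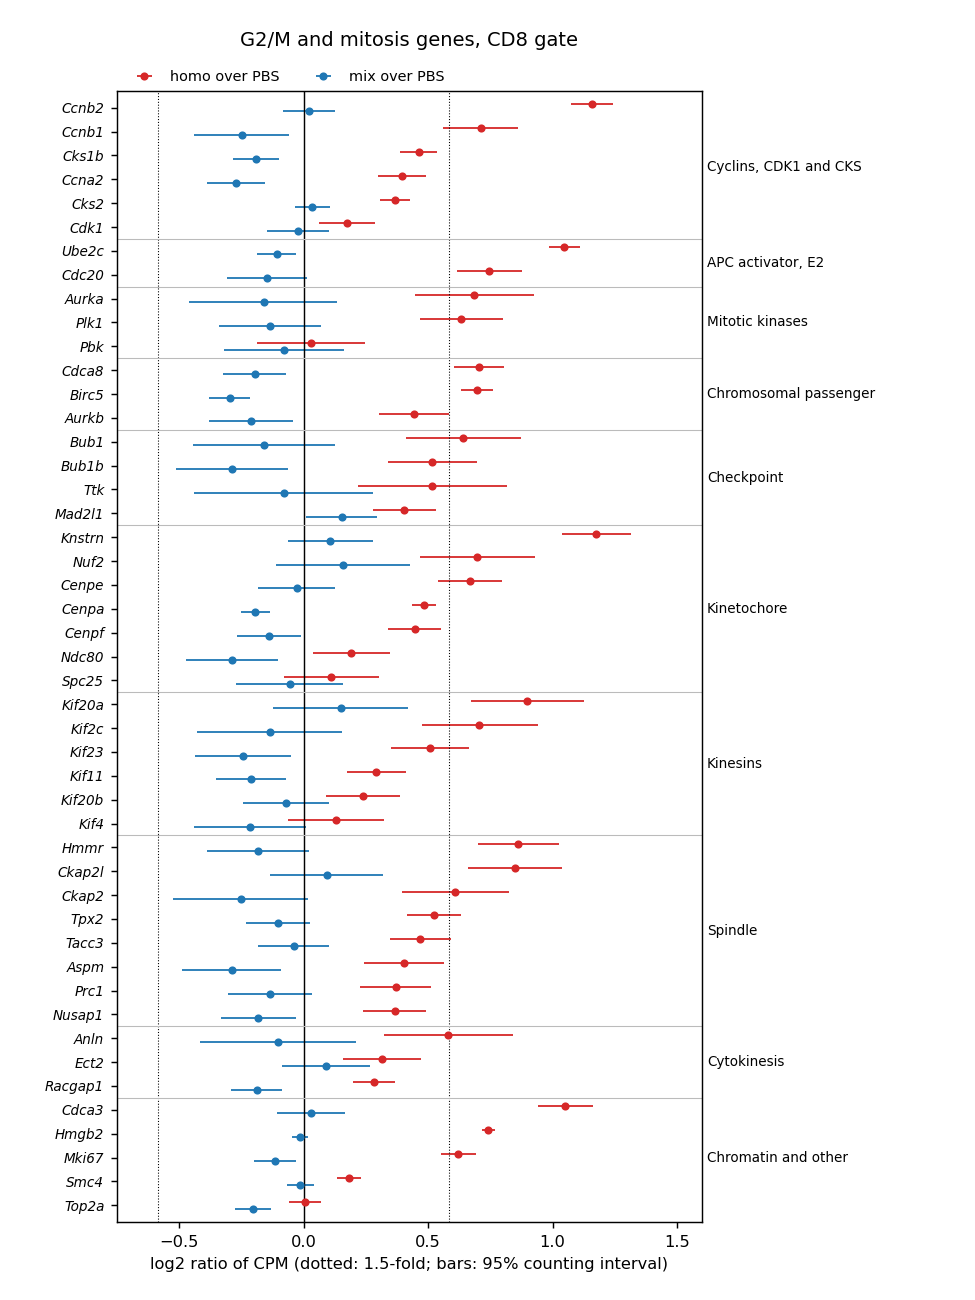
Log2 ratio of CPM for each of the 47 genes in the CD8 gate, homo over PBS in red and mix over PBS in blue, grouped by role from top to bottom. Points are ratios, bars their 95% counting intervals and dotted lines 1.5-fold; red points run from 0.01 (Top2a) to 1.17 (Knstrn), while blue points lie between -0.30 and 0.16.

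Among cyclins, CDK1 and its CKS partners, the B-type cyclin Ccnb2 stood apart from the rest. Ccnb2 was at 37.9 CPM in PBS, 38.5 in mix and 84.5 in homo, a log2 ratio of homo over PBS of 1.16 (1.07 to 1.24). The intervals of PBS and mix overlapped, and homo lay above both. Ccnb1, the other main mitotic cyclin, was at 13.0, 11.0 and 21.3 CPM (log2 ratio 0.71). The kinase Cdk1 itself was at 27.3, 26.8 and 30.8 CPM, a log2 ratio of 0.17 (0.06 to 0.29). Ccna2, a cyclin of S and G2 phase, had a log2 ratio of 0.39, Cks1b 0.46 and Cks2 0.37. Cks2, one of the most abundant members, was at 84.7, 86.7 and 109 CPM. In this group 2 of 6 members, the B cyclins, were past 1.5-fold.

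The members that work with the anaphase-promoting complex were both past 1.5-fold. Ube2c, the ubiquitin-conjugating enzyme of the complex, was at 73.7 CPM in PBS, 68.3 in mix and 152 in homo (log2 ratio 1.05, 0.99 to 1.11). Cdc20, its activator in mitosis, was at 17.7, 15.9 and 29.6 CPM (log2 ratio 0.75, 0.62 to 0.88). For both genes PBS and mix were near each other, and homo was above them.

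Of the mitotic kinases other than CDK1, only Plk1 reached the filter, and it was past 1.5-fold in homo over PBS, as were 2 of the 3 chromosomal passenger members. Plk1, which acts from centrosome maturation to cytokinesis, was at 10.8, 9.85 and 16.8 CPM in PBS, mix and homo. Aurka, a kinase of the spindle poles, was under the filter, at 5.31, 4.74 and 8.52 CPM. Pbk, another kinase and also under the filter, was at 7.68, 7.27 and 7.83 CPM, a log2 ratio of 0.03 (-0.19 to 0.25). The passenger complex corrects faulty chromosome attachments. Its subunit Birc5 (survivin) was at 70.8, 57.6 and 115 CPM, the subunit Cdca8 (borealin) at 28.4, 24.8 and 46.3 CPM, and its kinase Aurkb at 16.3, 14.1 and 22.1 CPM. Birc5 had a log2 ratio of homo over PBS of 0.69 and of mix over PBS of -0.30. Cdca8 had 0.70 for homo over PBS, and Aurkb 0.44.

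Kinetochore genes, whose proteins join chromosomes to microtubules, spread widely. Knstrn, a kinetochore and spindle protein, was at 14.1 CPM in PBS, 15.2 in mix and 31.9 in homo. Its log2 ratio of 1.17 (1.04 to 1.31) was the highest of the 47. Cenpa, the histone H3 variant of centromeres, was at 131, 115 and 183 CPM (log2 ratio 0.48). The microtubule motor Cenpe had a log2 ratio of 0.67 and Cenpf 0.45. Subunits of the NDC80 complex differed among themselves. Nuf2 had a log2 ratio of 0.70, Ndc80 0.19 and Spc25 0.11, with Spc25 at 9.54, 9.18 and 10.3 CPM. Nuf2 and Spc25 were under the filter. Spindle checkpoint genes, which hold anaphase until every chromosome is attached, had log2 ratios of 0.40 (Mad2l1) to 0.64 (Bub1). Of the 2 compared, 0 reached 1.5-fold, while Bub1 was past it but under the filter.

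Spindle genes followed a similar spread. Hmmr, a microtubule-binding protein of the spindle, was at 11.1, 9.80 and 20.2 CPM (log2 ratio 0.86, 0.70 to 1.03). Ckap2l, a spindle protein, was at 8.19, 8.73 and 14.7 CPM (0.85). The other spindle members had log2 ratios of 0.37 (Nusap1 and Prc1) to 0.61 (Ckap2). Of the kinesins, motor proteins that build the spindle and its midzone, Kif20a was at 5.62, 6.23 and 10.5 CPM (0.90) and Kif2c at 5.52, 5.02 and 9.01 CPM (0.71), both under the filter. The tetrameric spindle motor Kif11 had 0.29, Kif20b 0.24, Kif23 0.51 and Kif4 0.13. Kif4, a chromosome-bound motor, was at 9.25, 7.97 and 10.1 CPM. The cytokinesis genes Racgap1, Ect2 and Anln had log2 ratios of 0.28, 0.31 and 0.58.

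Chromatin genes held the highest levels and the ratio closest to 0. Hmgb2 was at 419 CPM in PBS, 416 in mix and 701 in homo (log2 ratio 0.74, 0.71 to 0.77). Mki67, the surface coat protein of mitotic chromosomes used as a proliferation marker, was at 61.4, 56.6 and 94.3 CPM (0.62). Cdca3, a partner of the mitotic entry machinery, was at 22.8, 23.2 and 47.2 CPM (1.05, 0.94 to 1.16). The condensin subunit Smc4 was at 137, 136 and 156 CPM (0.18). Top2a, the topoisomerase that untangles sister DNA, was at 85.8 CPM in PBS, 74.5 in mix and 86.1 in homo. Its log2 ratio of homo over PBS was 0.01 (-0.06 to 0.07), so that the widely used markers Mki67 and Top2a differed in this comparison.

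Genes outside the 47 did not all share the pattern. Of 58 other mitosis genes listed, 57 were in the tables and 35 were compared. In homo over PBS 6 were at least 1.5-fold higher and 0 lower, against 2.83% and 4.28% of all genes. Their median log2 ratio was 0.23, with 24 above 0 and 11 below. The log2 ratio of their summed UMIs was 0.10 (0.09 to 0.12). The genes named next had the largest ratios. Cdkn3, a phosphatase that acts on CDKs, was at 14.6, 13.8 and 27.1 CPM (0.90). Pimreg was at 8.24, 8.42 and 15.3 CPM (0.89), and Cdc25b, a phosphatase that activates CDK1, at 15.7, 13.6 and 28.3 CPM (0.85). Psrc1, a spindle protein under the filter, was at 2.81, 3.99 and 9.44 CPM (1.75).

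Most DNA replication genes had ratios below 0. Of 35 listed, 30 were compared, and in homo over PBS 0 were 1.5-fold or more higher and 2 that much lower, near the 2.83% and 4.28% of all genes. The median log2 ratio was -0.19, against -0.05 over all genes compared, and 27 of the 30 were below 0. The 2 lower genes were subunits of the replicative helicase, Mcm2, at 46.6, 48.1 and 29.0 CPM (-0.69), and Mcm4, at 78.8, 81.7 and 51.0 CPM (-0.63). Another subunit, Mcm3, had -0.54, and the uracil glycosylase Ung, under the filter, -0.68. Among regulators of the programme, 16 of 22 were compared, with 2 higher and 2 lower. Cdkn1a, the CDK inhibitor p21, was at 47.6, 43.5 and 24.4 CPM (-0.97), and E2f1, an activator of S phase genes, at 18.2, 16.5 and 10.9 CPM (-0.74). Cdkn2c, an inhibitor of CDK4 and CDK6, was at 17.2 CPM in PBS and 26.6 CPM in homo (0.63) and E2f2 at 9.01 and 13.6 CPM (0.59). The activator genes of the mitotic wave were under the filter, with log2 ratios of 0.09 for Foxm1 (-0.13 to 0.31) and 0.07 for Mybl2 (-0.14 to 0.28).

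Counted by cell, more CD8 gate cells in homo carried many of these transcripts. To set libraries of unequal depth side by side, 2000 UMIs were drawn from each cell and shallower cells were left out, 350 from PBS, 313 from mix and 423 from homo. Cells with at least 5 different members were 7.39% of PBS cells (6.77 to 8.03, 502 of 6797 cells), 7.40% of mix cells (6.71 to 8.13, 392 of 5300) and 14.2% of homo cells (13.3 to 15.0, 866 of 6120). Without the draw the shares were 16.7%, 19.6% and 34.8%. The share in homo was above both others at either depth, and PBS and mix were alike after the draw. This limit cuts a range and does not define a cell type. Cells with exactly 4 members numbered 122, 106 and 178 across PBS, mix and homo, and cells with exactly 5 numbered 49, 42 and 102. Cells with no member were 31.2% of PBS cells, 30.7% of mix cells and 22.6% of homo cells.

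**Figure D2:**
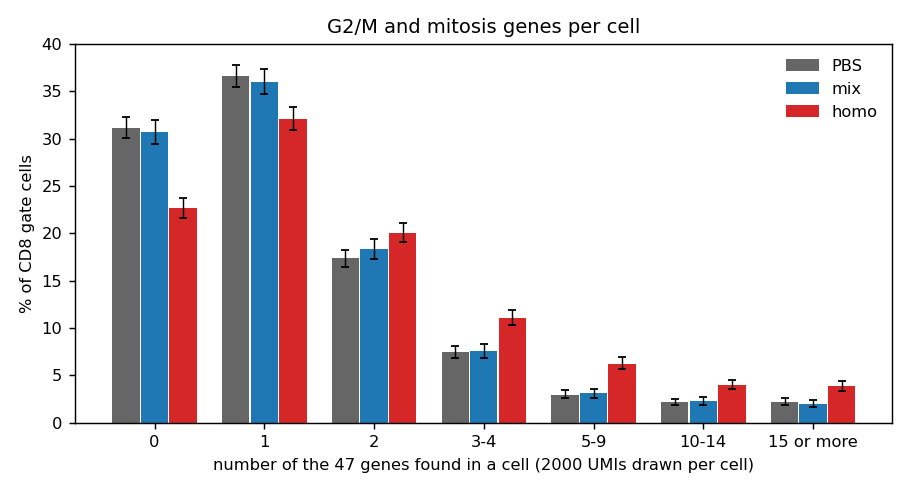
Percent of CD8 gate cells by the number of the 47 genes found among 2000 UMIs drawn per cell, for PBS (grey), mix (blue) and homo (red), with 95% counting intervals. Homo is lowest at 0 members (22.6%) and highest in every class from 2 members up, including 15 or more members (3.86%, against 2.22% in PBS and 2.02% in mix).

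These member-rich cells held 56.8% of the members' drawn UMIs for PBS, 54.9% for mix and 68.0% for homo. The median number of members in such a cell was 11 in each library, and the mean number of member UMIs was 20.1 in PBS, 18.7 in mix and 19.7 in homo. Across all cells the mean was 2.62, 2.53 and 4.10 member UMIs. The libraries differed more in the share of cells that were member-rich than in the number of member UMIs each such cell held. Member-rich cells were deeper before the draw, with median UMIs of 9219, 9260 and 10751 for PBS, mix and homo, against 5098, 5668 and 6839 in the other cells. Barcodes removed as likely doublets were member-rich more often, 14.1% in PBS, 17.5% in mix and 25.9% in homo. The member-rich shares with these barcodes kept were 7.83% for PBS, 7.81% for mix and 14.9% for homo.

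Markers of other cell types, apart from those of NK cells, summed to under 20 CPM in the member-rich cells. Their 8 macrophage or monocyte markers summed to 16.9, 16.6 and 15.6 CPM across PBS, mix and homo, with Lyz2, Adgre1, Csf1r and Fcgr1 at 0 in all 3. The 8 dendritic markers summed to 4.98, 3.83 and 5.77 CPM, and the 6 tumour or epithelial markers to 16.9, 12.8 and 5.77 CPM, with Krt8 and Krt19 at 0 in all 3. The 5 NK markers summed to 242, 268 and 211 CPM, with Ncr1 and Klra8 at 0 in all 3, and to 280, 286 and 343 CPM in cells with no member. The 5 B or plasma markers summed to at most 4.62 CPM and the 6 fibroblast or endothelial markers to at most 17.9 CPM. All 4 neutrophil markers were at 0 in member-rich cells, while homo cells with no member held 299 UMIs of them (108 CPM) and the other libraries 0. T cell markers summed to 6590, 7031 and 6786 CPM in member-rich cells and to 8602, 8976 and 8232 CPM in cells with no member.

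Joining the 47 genes with the DNA replication list divided the cycling cells differently in homo. Cells with at least 5 members and fewer than 5 replication genes were 2.56% of PBS cells (2.20 to 2.96), 2.94% of mix cells (2.50 to 3.43) and 7.55% of homo cells (6.90 to 8.24). Cells with at least 5 of both lists were 4.83%, 4.45% and 6.60%. Cells with at least 5 replication genes and fewer than 5 members were 8.36% of PBS cells (7.71 to 9.04), 9.51% of mix cells (8.73 to 10.3) and 3.86% of homo cells (3.39 to 4.37). The class with only the mitotic list was thus largest in homo, and the class with only the replication list smallest there. Cells with neither were 84.3%, 83.1% and 82.0%. The sizes of the classes depend on the drawn depth, and the order of the libraries for the mitotic class alone was the same at 4000 UMIs, with 3.78%, 4.63% and 9.93%.

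**Figure D3:**
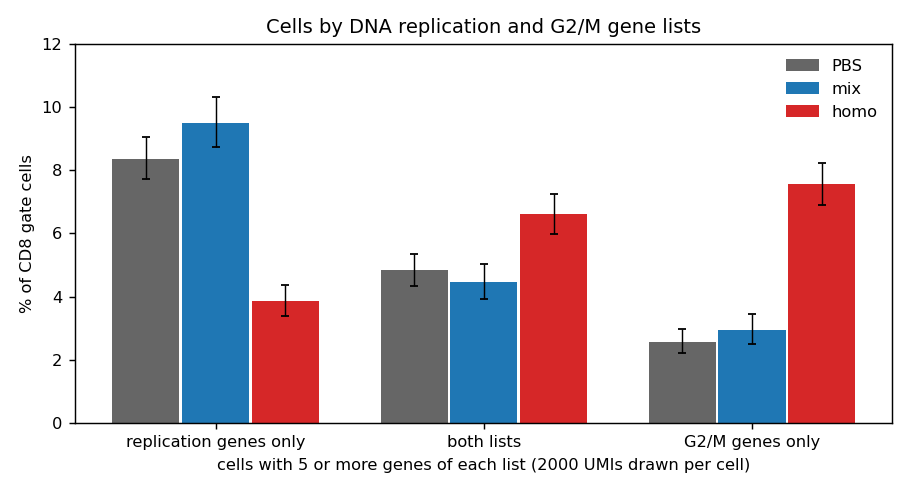
Percent of CD8 gate cells with 5 or more DNA replication genes only, 5 or more genes of both lists, or 5 or more G2/M and mitosis genes only, among 2000 UMIs per cell, for PBS (grey), mix (blue) and homo (red) with 95% counting intervals. Homo is lowest in the replication class (3.86%) and highest in the mitotic class (7.55%).

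Members that were found in cells with few replication transcripts tended to have the larger homo over PBS ratios. This was measured in the mix library, which does not enter that ratio. Among mix cells with Cdc20 and at least 5 other members, 68.4% had fewer than 5 replication genes (56.9 to 78.4, 79 cells). The share was 65.2% for Knstrn (46 cells), 61.2% for Ccnb2 (147 cells) and 55.9% for Cenpa (195 cells). It was 25.4% for Cdk1 (114 cells), 21.1% for Kif11 (90 cells) and 19.6% for Top2a (14.1 to 26.0, 184 cells). Across the 36 compared members, this share and the log2 ratio of homo over PBS had a Pearson r of 0.56 and a Spearman rho of 0.59, as a description over genes that share cells. Among members that departed from the order, Cdca3 had a share of 33.3% and a ratio of 1.05, Ckap2l 24.6% and 0.85, and Aspm 59.6% and 0.40.

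Within member-rich cells single members differed between homo and PBS in both directions. Because the members themselves chose these cells, levels inside them are a description. From PBS to homo, Cdk1 went from 198 to 120 CPM (log2 ratio -0.72), Prc1, the midzone crosslinker, from 123 to 78.5 CPM (-0.64) and Top2a from 497 to 324 CPM (-0.62). Cks2 went from 309 to 390 CPM (0.34), Ccnb2 from 306 to 371 CPM (0.28) and Hmgb2 from 1990 to 2389 CPM (0.26). Of the 47, 31 were below 0 and 16 above, and the interval lay below 0 for 13 and above 0 for 4. No such count was made over all genes in member-rich cells. Of member-rich cells, Top2a was found in 49.8% for PBS, 49.2% for mix and 37.2% for homo, and Cenpa in 57.4%, 52.6% and 68.4%.

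Several members were also higher in homo in cells that held almost none of the others. For each gene, cells with at most 2 other members after the draw were set apart. Ube2c in such cells was at 10.6 CPM in PBS, 14.8 in mix and 68.7 in homo, a log2 ratio of homo over PBS of 2.70 (2.42 to 2.99). It was found in 1.87% of such cells for PBS (1.54 to 2.26), 2.54% for mix (2.10 to 3.04) and 11.7% for homo (10.8 to 12.7). In cells with at least 5 other members, Ube2c was at 538, 469 and 483 CPM, and homo and PBS overlapped within counting error (log2 ratio -0.16, -0.31 to 0.01). Ube2c was thus higher in homo where other members were scarce, and about level where they were many.

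Some others were also higher in homo where other members were scarce. In cells with at most 2 other members, Cdca3 was at 1.47, 2.44 and 13.5 CPM (log2 ratio 3.21, 2.47 to 4.03) and Birc5 at 1.81, 2.55 and 9.42 CPM (2.38, 1.68 to 3.14). Ccnb2 was at 3.19, 4.31 and 10.7 CPM (1.75) and Knstrn at 4.83, 6.85 and 14.4 CPM (1.58). Other members went the other way there. Top2a was at 23.0, 24.2 and 17.6 CPM (-0.39), Cks2 at 56.5, 55.6 and 41.5 CPM (-0.45) and Cenpa at 59.8, 54.7 and 52.7 CPM (-0.18). Of the 41 members with at least 3 UMIs in both libraries, the interval lay above 0 for 12 and below 0 for 5, with a median log2 ratio of -0.01. The same count was not made over all genes in such cells, so these numbers have no background beside them.

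**Figure D4:**
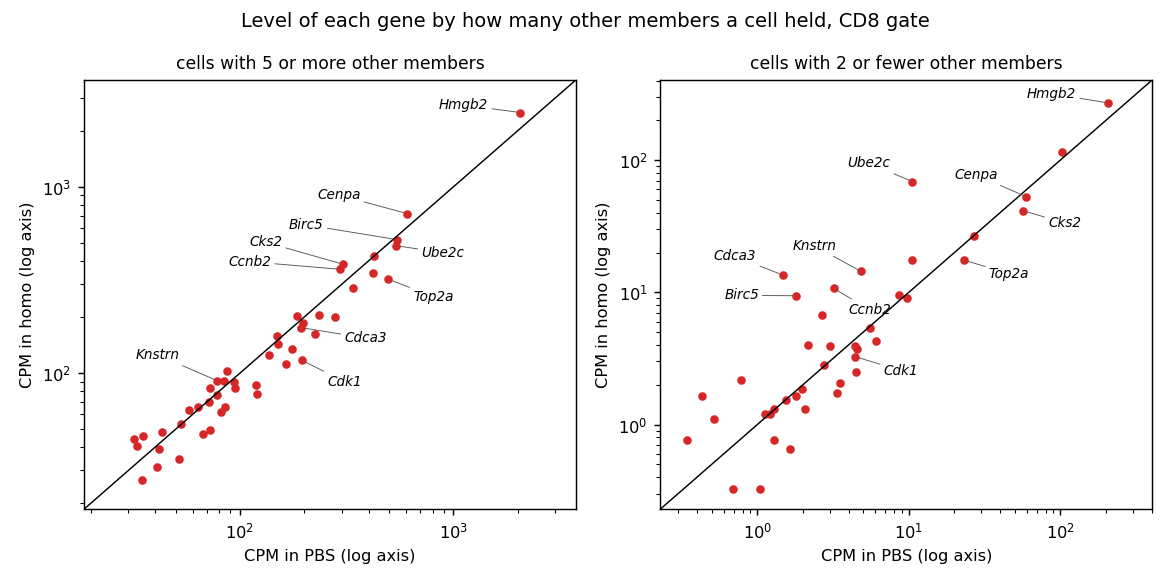
CPM in homo against PBS (log axes, 2000 UMIs per cell) for members with 3 or more UMIs in both libraries, in CD8 gate cells with 5 or more other members (left) and with 2 or fewer (right); the line marks equal levels. On the right Ube2c lies far above the line (10.6 against 68.7 CPM), as do Cdca3, Birc5, Ccnb2 and Knstrn, while on the left Ube2c lies close to it (538 against 483 CPM).

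The cells behind the Ube2c value were examined further, a choice made after it was seen. In homo, 555 of 4728 cells with at most 2 other members held Ube2c. Of these 3.24% had at least 5 replication genes, against 3.33% of the cells without Ube2c. Plk1 was found in 0 of the 555 and in 3 of 4174 cells without Ube2c, too few to compare. Among homo cells with at most 2 members besides the pair, Cdca3 was found in 5.15% with Ube2c and 2.31% without, and Ccnb2 in 4.60% and 1.62%. Birc5 was found in 3.89% and 1.71%, and Knstrn in 4.81% and 2.55%. Intervals overlapped for Mki67 (4.09% and 3.30%), Top2a (3.75% and 3.34%) and Cenpa (11.8% and 9.12%). Cdc20 was found in 0.360% and 0.263%, on 2 and 11 cells, also too few to compare. As a ratio, the contrast for Ccnb2 and Cdca3 was wider in the other libraries, on 3 to 9 cells with both genes. Ccnb2 was found in 7.96% and 0.472% of such cells for PBS and in 6.78% and 0.700% for mix, and Cdca3 in 2.70% and 0.263% for PBS and in 5.98% and 0.384% for mix. Top2a was found in 3.64% and 4.39% for PBS and in 1.72% and 4.57% for mix. Mki67 was found in 0% and 2.04% for PBS and in 4.27% and 2.25% for mix. Before the draw the median UMIs were 7628 in homo cells with Ube2c and 6641 in those without. As a measure of background from free RNA, Ube2c was looked up in CD4 and Foxp3 gate cells with at most 2 other members. It was at 3.54 CPM in PBS, 7.08 in mix and 6.76 in homo, on 6, 12 and 2 UMIs, so that the homo value there rests on 2 UMIs in 148 cells.

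Ube2c-bearing cells in homo differed in T cell genes from other cells with few members. Tcf7, which keeps T cells in a stem-like state, was at 21.6 CPM with Ube2c and 74.3 without (log2 ratio -1.78, -2.43 to -1.19). The chemokine receptor gene Ccr7 was at 3.60 CPM with Ube2c and 23.0 without (-2.67). Gzma, a granule protease, was at 1330 CPM with Ube2c and 831 without (0.68, 0.60 to 0.76), and Ifitm1 at 3980 and 3230 CPM (0.30). Lag3 was at 506 and 555 CPM (-0.13, -0.26 to -0.01). In PBS and mix, Tcf7 was at 0 in the 109 and 115 cells with Ube2c, and at 48.8 and 60.1 CPM in those without. Gzma and Ccr7 did not show the homo pattern in PBS. Gzma was at 211 CPM with Ube2c and 368 without in PBS (-0.80, -1.26 to -0.39), and at 248 and 195 in mix (0.34, -0.06 to 0.72). Ccr7 was at 50.5 and 49.5 CPM in PBS (0.03, -0.98 to 0.88), and at 17.4 and 56.2 in mix (-1.69, -3.57 to -0.33). The gaps in Ifitm1 and Lag3 were not particular to homo. Ifitm1 had a log2 ratio of 0.14 in PBS (0.003 to 0.28) and 0.49 in mix (0.34 to 0.63). Lag3 had -0.52 in PBS (-0.83 to -0.23) and -0.05 in mix (-0.30 to 0.20).

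Member-rich cells were not spread evenly over cells split by T cell genes. CD8 gate cells in which Lag3 was found after the draw were less often member-rich than those without, 5.96% against 9.26% in PBS, 6.56% against 8.61% in mix and 12.3% against 16.5% in homo. The order was the same with Il7r, the interleukin-7 receptor of memory T cells, at 4.86% against 8.93% in PBS, 5.0% against 8.51% in mix and 8.93% against 18.4% in homo. It was not particular to these genes. Il2rb, Pdcd1, Tcf7, Cd160 and Slamf6 had the same order in every library, some with overlapping intervals. Tcf7, for example, had 5.58% against 7.51% in PBS and 7.68% against 14.7% in homo. Tnfrsf9 had the opposite order in every library, at 16.1% against 13.3% in homo. Gzma split the libraries differently. Member-rich cells were 21.1% of homo cells with Gzma (18.8 to 23.6) and 12.5% of those without (11.6 to 13.4), against 6.12% and 7.56% in PBS and 6.78% and 7.44% in mix. With Il2ra, the high-affinity interleukin-2 receptor chain, the shares in homo were 18.5% (15.4 to 21.8) and 13.7% (12.8 to 14.6), against 7.05% and 7.43% in PBS and 8.58% and 7.24% in mix. The difference between libraries in these contrasts was not tested.

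**Figure D5:**
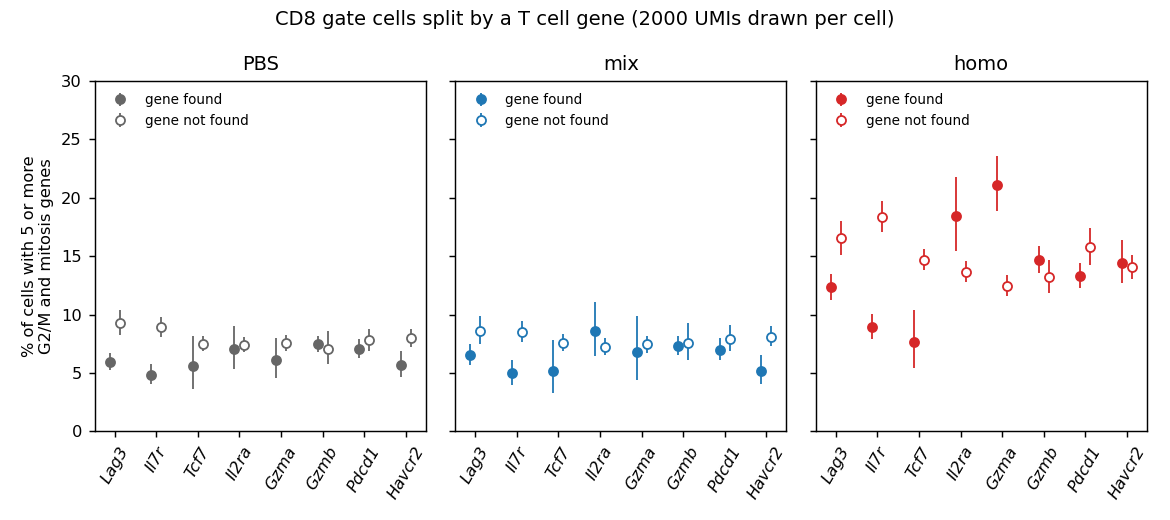
Percent of CD8 gate cells with 5 or more G2/M and mitosis genes, split by whether a T cell gene was found (filled) or not (open) among 2000 UMIs, in each library, with 95% counting intervals. Cells with Lag3, Il7r, Tcf7 or Pdcd1 lie below those without in all 3 libraries, and cells with Gzma lie above in homo (21.1% against 12.5%).

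Set by level, Gzma was at 1600 CPM in member-rich homo cells and 745 CPM in homo cells with no member. In PBS the values were 279 and 323 CPM and in mix 101 and 207 CPM. Gzmb was at 2646 and 3832 CPM in PBS, 2677 and 4086 CPM in mix, and 1434 and 1455 CPM in homo. Prf1, the pore-forming protein, was lower in member-rich cells of every library, at 341 against 586 CPM in PBS, 288 against 500 CPM in mix and 158 against 236 CPM in homo. Lag3 was lower there too, at 361 against 629 CPM in PBS, 412 against 611 CPM in mix and 394 against 588 CPM in homo. The T cell markers above were also lower on the CPM scale in member-rich cells, and their part in these differences was not tested.

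The non-members most like the 47 were ranked by the lowest of the 3 libraries' log2 ratios of member-rich cells over cells with no member, among 5085 genes. The first 10 were the linker histone Hist1h1b, the ribonucleotide reductase subunit Rrm2, Shcbp1, Hist1h2ap, Hist1h2ae, the PCNA partner Pclaf, the kinesin Kifc1, the cohesin acetyltransferase Esco2, the DNA glycosylase Neil3 and the kinetochore scaffold Knl1. Their lowest log2 ratios ran from 6.53 for Hist1h1b to 5.32 for Knl1. Rrm2, for example, was at 507 against 4.96 CPM in PBS, 454 against 3.69 in mix and 276 against 2.89 in homo.

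In the Foxp3 gate, which holds regulatory T cells, the gap of homo over PBS was smaller than in the CD8 gate and that of mix under PBS larger. The members summed to 1991 CPM in PBS, 1616 in mix and 2298 in homo. The mix over PBS log2 ratio was -0.30 (-0.35 to -0.25) and homo over PBS was 0.21 (0.11 to 0.30), the latter on 1099 UMIs of 124 cells in homo. With 2000 UMIs drawn per cell, homo over PBS was 0.06 and mix over PBS -0.14. Of 32 members compared, 0 were higher and 11 lower in mix than in PBS by 1.5-fold or more, where 1.31% and 1.79% of 7872 genes were. Among the 11, Cenpe was at 22.8 CPM in PBS and 11.5 in mix (-0.99), Prc1 at 31.5 and 17.3 CPM (-0.86), Cks1b at 47.9 and 26.7 CPM (-0.84) and Ube2c at 87.2 and 57.9 CPM (-0.59). In homo over PBS 4 were at least 1.5-fold higher and 3 lower, near the background of 12.1% and 11.2%. In homo over mix 10 were at least 1.5-fold higher and 0 lower, against 11.4% and 10.7% of all genes. Member-rich cells were 5.97% of PBS cells (4.36 to 7.96), 4.22% of mix cells (2.86 to 5.97) and 4.63% of homo cells (1.52 to 10.5, 5 cells), and their intervals overlapped.

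In the CD4 gate the values rest on few cells. The members summed to 1025, 1255 and 2178 CPM for PBS, mix and homo, with 1000, 1419 and 677 UMIs behind these values. The log2 ratio of homo over PBS was 1.09 (0.94 to 1.23), and with each cell weighted equally it was 0.56. Hmgb2 was at 357, 400 and 775 CPM (1.12, 0.88 to 1.36) and Ube2c at 16.4, 38.9 and 90.1 CPM on 16, 44 and 28 UMIs. Among 27 members compared, homo was above PBS by 1.5-fold or more for 20 and below for 0, where 13.7% and 18.9% of 8036 genes were. In mix over PBS 10 were higher and 1 lower, against 7.55% and 6.84%. In homo over mix 16 were higher and 0 lower, against 13.0% and 18.1%. Member-rich cells numbered 3 of 254 for PBS, 12 of 274 for mix and 3 of 65 for homo, and the 3 from homo held 41.8% of the gate's drawn member UMIs.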

How the data were processed

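The deposited values were raw UMI counts per gene and barcode, which the authors made with Cell Ranger. Its version is 7.1.0 per the file headers and 2.1.1 per the submitters' processing notes, which also list Seurat 4.1.0 and the mm39 build. No mm39 genome was used here. Every barcode held at least 500 UMIs. Kept barcodes had 500 or more genes, 1000 or more UMIs and a mitochondrial share under 10%, and the highest Scrublet scores (scanpy 1.11.5) were removed per library at 0.8% for every 1000 kept barcodes. Groups came from the sample titles. UMIs were summed per gate and library and scaled to CPM, so free RNA and the other genes' levels enter each value. Ratios carry exact conditional binomial 95% intervals for 2 Poisson counts and shares exact Clopper-Pearson 95% intervals. The ratio intervals were tested only on simulated independent Poisson counts, which is the model they assume. That test does not cover the clustering of members' UMIs in few cells. Genes with a mean of at least 10 CPM over the libraries were compared, and 1.5-fold was the limit counted. Member-rich cells held at least 5 members among 2000 UMIs drawn without replacement.

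The members and lists were chosen with earlier results of these data known. Described with values were the 12 members with the largest absolute log2 ratio of homo over PBS in the CD8 gate, the 5 with the highest mean CPM, the 4 nearest 0, and up to 4 genes of each other list with the largest ratios; Birc5, Mki67, Plk1, Cdk1 and others were added after their values were seen. Reads shared with near-identical gene copies cannot be told apart. Computation was in Python 3.11.15 with pandas 2.3.3, scipy 1.17.1 and numpy 2.4.6. Alternatives covered doublets, mitochondrial limit, scaling, gates, cell weights, depth, filters and limits.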

Additional observations from a re-analysis of the deposited data

Results flagged for a closer look

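The summed members of mix over PBS lay on opposite sides of 0 in the T cell classes, with log2 ratios of 0.29 in the CD4 gate, -0.090 in the CD8 gate and -0.30 in the Foxp3 gate. This difference between gates was not tested, since each gate has 1 library per group.

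Cells outside the gates also carried the members. In cells with no UMI of Cd8a, Cd8b1, Cd4 or Foxp3 the members summed to 747 CPM in PBS, 832 in mix and 1759 in homo, a log2 ratio of 1.24 for homo over PBS (1.11 to 1.36) and 0.16 for mix over PBS (0.03 to 0.28). In cells with CD8 genes together with Cd4 or Foxp3 they summed to 2215, 1743 and 2341 CPM, a log2 ratio of 0.080 for homo over PBS (0.03 to 0.13).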

How the results depend on the processing

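Across 189 recomputed values, 136 moved by less than the counting interval (or 1.5 times for a count) and 53 moved by more. Direction was checked only for the log2 ratios among them, and 0 of those changed sign. Counts and shares have no sign and could not change direction. No paired analysis was possible because each group has 1 library. In the CD8 gate, homo over PBS was 0.65 with cells thinned to 2000 UMIs, 0.64 as a mean of per-cell CPM, 0.62 with median-of-ratios scaling, 0.62 with totals without ribosomal, mitochondrial and receptor genes, and 0.52 without Hmgb2, the last chosen after seeing the data. Homo over mix was 0.70 thinned, 0.71 with median-of-ratios scaling, 0.72 with the reduced totals and 0.63 without Hmgb2, and mix over PBS was -0.050 thinned, -0.030 per cell and -0.12 without Hmgb2. In the CD4 gate, homo over PBS was 0.66 thinned, 1.85 with a gate of 2 UMIs and 0.56 per cell; homo over mix was 0.48, 1.28 and 0.47; mix over PBS was 0.57 with a gate of 2 UMIs and 0.089 per cell. In the Foxp3 gate, homo over PBS was 0.063 thinned, homo over mix was 0.20 thinned, 0.64 with a gate of 2 UMIs and 0.32 per cell, and mix over PBS was -0.14 thinned and -0.13 per cell. With a mean of at least 50 CPM, 5 members were at least 1.5-fold higher in homo than in PBS and 7 than in mix, because fewer genes were tested. The share of all genes past 1.5-fold was not counted at that filter. Member-rich shares in PBS, mix and homo were 14.8%, 15.0% and 25.2% with at least 3 members, 4.40%, 4.28% and 7.89% with at least 10, 5.11%, 5.31% and 9.35% at 1000 UMIs, 13.6%, 13.3% and 21.6% at 4000 UMIs, and 16.7%, 19.6% and 34.8% not thinned. Cells with the mitotic list alone were 6.08%, 6.36% and 13.8% with a limit of 3 genes and 3.78%, 4.63% and 9.93% at 4000 UMIs, both chosen after seeing the data. Cells with Ube2c and few other members were 3.69%, 4.87% and 19.8% at 4000 UMIs, and 10.8% in homo where no other member was found, also chosen after seeing the data. For cells with no other member the PBS and mix shares are not given here, so the libraries are not compared there. The cause of the other shifts was not tested. Depth limits the CD4 and Foxp3 gates in homo, where single members often rest on under 30 UMIs.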
